A study of Mus musculus with 3 samples.

Results

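Stfa1, Stfa2, Stfa3, Cstb and Cst6, 5 cystatin family genes of the epidermis, were described in single cells from mouse abdominal skin. They were taken by symbol from the 28693 genes of the count tables, and their UMIs (unique molecular identifiers, each standing for 1 captured RNA molecule) were read in cells that had 200 or more detected genes and no more than 10% mitochondrial UMIs. Of the 5 genes, 4 had UMIs and Stfa2 had none in any library, among 18732 genes with UMIs in all. Because the genes were chosen for how they behave in these cells, their levels are given as a description and no test was made on them.

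Cystatins are small proteins that block papain-type cysteine proteases such as the cathepsins. Stefins, the cystatins without a signal peptide, act inside cells: Cstb encodes stefin B, which is found in most cell types, and the Stfa genes are the mouse counterparts of human cystatin A (stefin A), a protein of the upper epidermis. Cst6 encodes cystatin M/E, a secreted inhibitor of legumain and of cathepsins L and V that is made in the upper epidermis and hair follicle, and mice without it have a disturbed skin barrier. The epidermis is built from basal cells that divide, spinous cells above them, and granular cells that form the barrier. The infundibulum is the upper, funnel-shaped end of the hair follicle, the bulge is its stem cell region, and sebocytes are the lipid-making cells of the sebaceous gland.

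The 3 groups have 1 library each, from C57BL/6 mice with the genotype Col1a2creERT2; R26H2B EGFP at an age of 8 to 12 weeks. The groups are a non-pregnant control (NP), gestation day 16 (dpc16) and day 42 after delivery (dpp42). The dpc16 and dpp42 mice received tamoxifen while pregnant, and the control over 3 days, with its skin taken 48 days afterwards. The Cre is driven by Col1a2, a collagen gene of fibroblasts, so the reporter is not directed at keratinocytes. The labels do not say how many mice went into a library. With 1 library per group, differences between libraries have no replicate check, and all intervals below are exact 95% intervals that cover counting error only.

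The labels call the cells dermal, obtained after 30 min in 0.25% trypsin and filtering at 40 and 20 µm, but keratinocyte markers prevailed in all 3 libraries. The tables held 1330 NP, 4122 dpc16 and 1196 dpp42 barcodes, of which 1289, 3652 and 1081 were kept, against 1289, 3650 and 1081 cells stated by the submitters. Keratinocyte-like cells were 1017 (78.9%), 1771 (48.5%) and 739 (68.4%) of them, with median depths of 3299, 5048 and 3784 UMIs per cell. Joint clustering without any cystatin or cathepsin gene gave 32 clusters, named from marker lists only where the markers allowed it, and each name carries "-like" for that reason. Libraries shared 6 (NP and dpc16), 1 (NP and dpp42) and 4 (dpc16 and dpp42) cell barcodes. Levels are CPM, counts per 1000000 UMIs of the cells summed. A gene was measured in a comparison with at least 10 CPM in 1 of the 2 sums and 20 UMIs over both, and it is called higher or lower where the ratio reached 1.5 and its interval excluded 1.

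The stefin A genes lie in 1 cluster of close copies on chromosome 16. In the GENCODE M21 annotation of GRCm38, Stfa1 (ENSMUSG00000071562) spans 16:36276951-36285373 on the plus strand, Stfa2 (ENSMUSG00000022902) 16:36403992-36408457 and Stfa3 (ENSMUSG00000054905) 16:36450537-36455392, both on the minus strand. Cstb (ENSMUSG00000005054) lies elsewhere, at 10:78425669-78427622 on the plus strand, and Cst6 (ENSMUSG00000024846) at 19:5344705-5349574 on the minus strand. The promoters of the 3 stefin A genes are shown because 2 of the genes had UMIs in the same spinous-like cells and the other had none. Each is the 250 bases before the RefSeq start (GRCm38.p6), written 5′ to 3′ on the gene's strand. Capitals mark matches to the motif of GATA factors (AGATAA) and to a TATA-like motif (TTTAAA).
Stfa1, chr16:36276898-36277147, plus strand: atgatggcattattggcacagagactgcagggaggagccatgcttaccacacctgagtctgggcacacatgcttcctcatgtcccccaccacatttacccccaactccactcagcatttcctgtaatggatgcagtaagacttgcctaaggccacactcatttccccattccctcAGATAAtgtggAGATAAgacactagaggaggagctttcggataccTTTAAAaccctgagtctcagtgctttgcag
Stfa2, chr16:36408364-36408613, minus strand: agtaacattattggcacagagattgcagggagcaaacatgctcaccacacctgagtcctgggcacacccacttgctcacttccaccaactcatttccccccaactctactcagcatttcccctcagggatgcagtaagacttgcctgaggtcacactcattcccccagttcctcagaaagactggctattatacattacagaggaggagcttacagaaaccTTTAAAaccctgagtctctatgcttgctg
Stfa3, chr16:36455393-36455642, minus strand: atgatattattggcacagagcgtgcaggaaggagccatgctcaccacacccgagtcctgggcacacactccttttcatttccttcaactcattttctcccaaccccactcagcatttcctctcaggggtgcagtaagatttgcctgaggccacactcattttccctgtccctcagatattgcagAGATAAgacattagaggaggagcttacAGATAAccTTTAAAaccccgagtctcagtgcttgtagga

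Aligned end to end, the Stfa1 promoter was identical to that of Stfa3 at 209 of 246 bases (85.0%) and to that of Stfa2 at 203 of 247 (82.2%), and Stfa2 and Stfa3 matched at 202 of 247 (81.8%). All 3 hold TTTAAA close to the start, at -30 in Stfa1, -29 in Stfa2 and -31 in Stfa3, counted in bases from the start to the motif's first base. AGATAA occurs at -75 and -64 in Stfa1 and at -66 and -39 in Stfa3, and Stfa2 has no match. The AP-1 motif TGANTCA has no match in any of the 3. Of the other family genes with a promoter entry, Gm5416 has AGATAA at -122 and -111. It had 4 UMIs in keratinocyte-like cells of the 3 libraries. Csta1, with 904 UMIs there, has no AGATAA. Neither have Stfa2l1, which was not among the family genes with UMIs, and 2010005H15Rik, with 3 UMIs. Within these windows AGATAA and UMIs thus did not go together over all these genes. The windows do not cover the same stretch in all of them. With the Stfa1 window, that of Csta1 aligned at 161 bases and that of 2010005H15Rik at 3, so a matching stretch may lie outside. Both strands were searched, and of 32851 mouse promoters of the same length 12.1% hold the TATA-like, 9.99% the GATA and 6.75% the AP-1 motif. The motifs were picked after the sequences were seen, and a match is a description of letters, not of a site in use. GENCODE starts Stfa1 197, Stfa2 94, Csta1 52 and 2010005H15Rik 94 bases further upstream than RefSeq, so parts of these windows are transcribed sequence there. Both sources give the same start for Stfa3.

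Because the reads come from the 3′ ends of transcripts, the copies can be told apart only where those ends differ. Of the 251 words of 50 bases in the last 300 bases of the longest annotated transcript, all were unique to the gene for Stfa3, Cstb and Cst6. For Stfa1, 123 (49.0%) were unique and the rest also occur in BC100530 or BC117090, neighbouring genes of the same family. For Stfa2, 188 (74.9%) were unique and the rest also occur in Gm4758 or Stfa2l1. How reads that fit several genes were handled is not given in the sources used here, so Stfa1 UMIs, and the absence of Stfa2 UMIs, are uncertain in a way that Stfa3 UMIs are not.

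Stfa3, a stefin A gene, was found mainly in dpc16. It had 41 UMIs in 29 NP cells, 701 UMIs in 260 dpc16 cells and 30 UMIs in 25 dpp42 cells. Over all keratinocyte-like cells its level was 7.88 CPM in NP, 55.3 CPM in dpc16 and 4.85 CPM in dpp42, from 40, 628 and 21 UMIs. The dpc16 library was thus the high one, with a level 7.01-fold that of NP (5.09 to 9.91) and 11.4-fold that of dpp42 (7.39 to 18.5). Stfa3 did not reach the minimum for a comparison of dpp42 with NP.

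In spinous-like cells the difference was wider. Stfa3 stood at 8.29 CPM in NP (20 UMIs, 355 cells), 172 CPM in dpc16 (397 UMIs, 197 cells) and 4.09 CPM in dpp42 (6 UMIs, 170 cells). It was higher in dpc16 than in NP by 20.7-fold (13.2 to 34.3), and the dpp42 level was 0.0238 of the dpc16 level (0.00868 to 0.0522). In NP 10 of the 355 cells had a Stfa3 UMI (2.82%), in dpc16 96 of 197 (48.7%) and in dpp42 5 of 170 (2.94%), so the groups were far apart. The 2 spinous-like clusters behaved alike. Cluster 13, led by Krt1, Mt4 and Krt10, had Stfa3 at 8.32, 218 and 5.40 CPM in NP, dpc16 and dpp42, and cluster 14, led by Krtdap, Krt77 and Krt10, had it at 8.27, 125 and 3.29 CPM. The ratio of dpc16 to NP was 26.2 in cluster 13 and 15.2 in cluster 14.

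Within dpc16 the Stfa3 UMIs were spread unevenly over spinous-like cells. The highest cell held 27 UMIs, against 8 in NP and 2 in dpp42, and 18 cells (9.14%) together held 50% of the UMIs. Without the cell with most UMIs in each library the ratio to NP was 32.4, since 8 of the 20 NP UMIs sat in 1 cell.

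Stfa3 was also present below and beside the spinous layer. In basal-like cells it stood at 15.8 CPM in NP, 87.7 CPM in dpc16 and 26.1 CPM in dpp42, from 8, 34 and 7 UMIs, and dpc16 was higher than NP by 5.55-fold (2.52 to 13.9). That ratio was 2.59 when cells over 5% mitochondrial UMIs were left out, and 7.19 but no longer called with cells thinned to 1000 UMIs. The dpc16 level in spinous-like cells was 1.96-fold that in basal-like cells (1.38 to 2.87), whereas in NP the ratio was 0.525 (0.221 to 1.38), with an interval that includes 1. Cluster 25, keratinocyte-like cells led by Serpinb2, Fosl1 and Krt16 and left without a layer name, had Stfa3 at 92.7 CPM in dpc16 from 111 UMIs against 1 UMI in NP, a ratio of 11.1 (1.95 to 443). Cycling-like cells had 11.4 CPM in NP, 35.1 CPM in dpc16 and 7.13 CPM in dpp42, and dpc16 was higher than NP by 3.09-fold (1.10 to 12.0). Stfa3 and Cst6 were the 2 of 3 members called higher in these cells, beside 5.86% of genes.

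The gland had little Stfa3, and the follicle had few UMIs of it. Sebocyte-like cells had 0 UMIs in NP, 1.64 CPM in dpc16 and 0.927 CPM in dpp42. Bulge-like cells had 30.1 CPM in NP, 9.67 CPM in dpc16 and 13.5 CPM in dpp42, from 5, 3 and 3 UMIs. The NP value, with an interval of 9.77 to 70.2 CPM, stood above that of spinous-like cells of NP but is poorly fixed. The infundibulum-like cells had 0 UMIs in NP and dpp42 and 25 in dpc16 (32.7 CPM), of which 15 were in a single cell. Cluster 10, led by haemoglobin genes with Defb6 and Alox12e and not counted as keratinocyte-like, had 0, 38 and 4 UMIs, which in dpc16 made 40.7 CPM. Granular-like cells, with 13, 15 and 18 cells in the libraries, had 3 UMIs of Stfa3, all in dpc16.

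**Figure D1:**
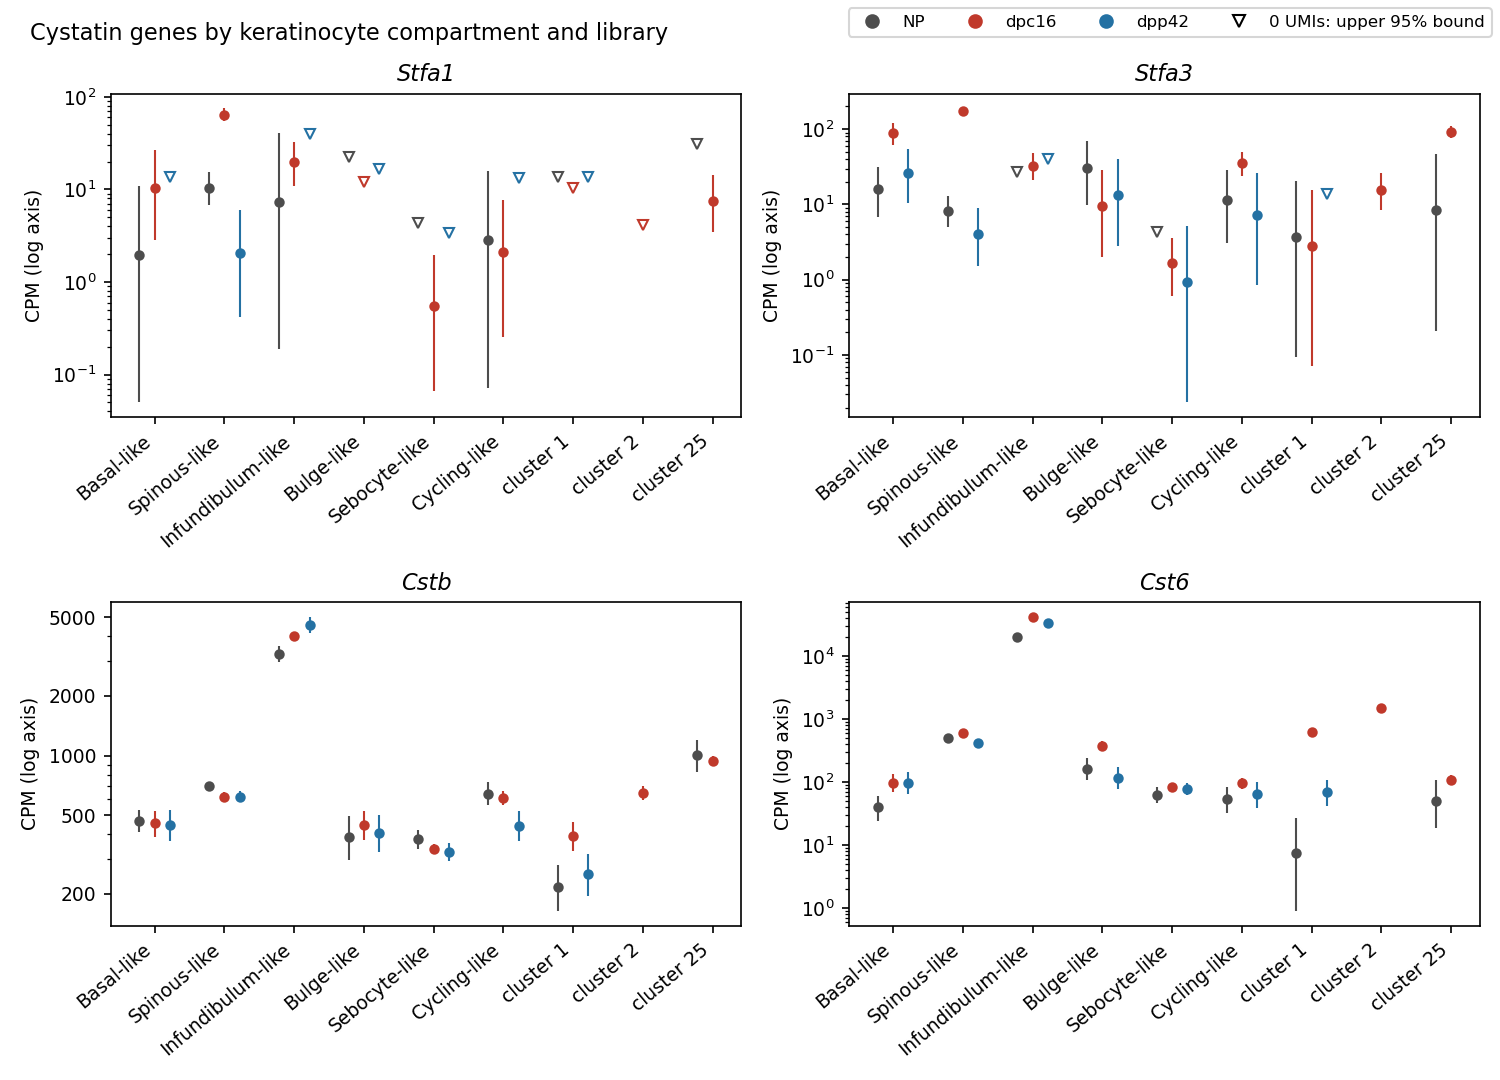
Level of Stfa1, Stfa3, Cstb and Cst6 (CPM, log axis) in keratinocyte-like compartments and unnamed clusters with at least 30 cells in the library, by library, without clusters 3 and 10. Points are sums over cells, bars are exact Poisson 95% intervals, and open triangles are upper bounds where no UMI was found; Stfa1 and Stfa3 peak in spinous-like cells of dpc16, while Cstb and Cst6 peak in infundibulum-like cells in all 3 libraries.

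Stfa1, the stefin A gene on the opposite strand, was sparser and more closely tied to the spinous layer. It had 29 UMIs in 23 NP cells, 191 UMIs in 94 dpc16 cells and 9 UMIs in 4 dpp42 cells. Spinous-like cells held 86.2% of these UMIs in NP and 77.5% in dpc16, but only 33.3% in dpp42. Of the Stfa3 UMIs they held 48.8%, 56.6% and 20.0%. Spinous-like cells themselves gave 40.8, 11.7 and 27.0% of all UMIs of the 3 libraries.

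In spinous-like cells Stfa1 stood at 10.4 CPM in NP, 64.1 CPM in dpc16 and 2.05 CPM in dpp42, from 25, 148 and 3 UMIs. It was higher in dpc16 than in NP by 6.19-fold (4.03 to 9.87), and dpp42 was lower than NP, with a ratio of 0.197 (0.0381 to 0.647). The share of spinous-like cells with a Stfa1 UMI was 19 of 355 (5.35%), 71 of 197 (36.0%) and 3 of 170 (1.76%). In cluster 13 the levels were 14.6 CPM, 57.4 CPM and no UMI, and in cluster 14 they were 7.58, 71.0 and 3.29 CPM. Over all keratinocyte-like cells the Stfa1 level was 5.72, 16.02 and 2.08 CPM, with dpc16 2.80-fold that of NP (1.89 to 4.30). With the same weight for each compartment this ratio was 4.29.

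Outside the spinous layer Stfa1 was at the edge of detection. Basal-like cells had 1, 4 and 0 UMIs, and in dpc16 the spinous-like level was 6.21-fold the basal-like level (2.38 to 23.1). Bulge-like cells had none. Of the 15 UMIs in dpc16 infundibulum-like cells, 10 were in 1 cell, and of the 9 dpp42 UMIs, 6 were in 1 cell of cluster 25. The low totals leave the order of NP and dpp42 resting on few cells: without the richest cell of each library the spinous-like ratio of dpp42 to NP was 0.158 and no longer called.

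Stfa2, the remaining stefin A gene of the list, had 0 UMIs. Given 3 counts as the limit a count of 0 allows, its level in keratinocyte-like cells was at most 0.591 CPM in NP, 0.264 CPM in dpc16 and 0.693 CPM in dpp42. In spinous-like cells the limits were 1.24, 1.30 and 2.05 CPM, so the Stfa2 level in dpc16 lay well under the 64.1 CPM of Stfa1 and the 172 CPM of Stfa3 in those cells.

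Of the 4 members measured in spinous-like cells, 2 were higher in dpc16 than in NP (Stfa1 and Stfa3) and 2 were neither (Cstb and Cst6), beside 5.91% of all 7310 measured genes called higher and 25.5% called lower. The median log2 ratio over all measured genes was -0.30 there. Of dpp42 over dpc16, 2 of 4 members were lower (Stfa1 and Stfa3), beside 7.65% of genes, and of dpp42 over NP 1 of 3 was lower (Stfa1), beside 4.95% of genes. Over all keratinocyte-like cells 3 of 4 members (Stfa1, Stfa3 and Cst6) were higher in dpc16 than in NP, beside 8.89% of 7945 genes. There 3 of 4 were lower in dpp42 than in dpc16, beside 8.53%, and 1 of 2 (Cst6) was higher in dpp42 than in NP, beside 4.42%. In basal-like cells 2 of 3 members (Stfa3 and Cst6) were higher in dpc16 than in NP, beside 7.50% of genes. Since the members were chosen from these data, nothing is read from these counts.

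**Figure D2:**
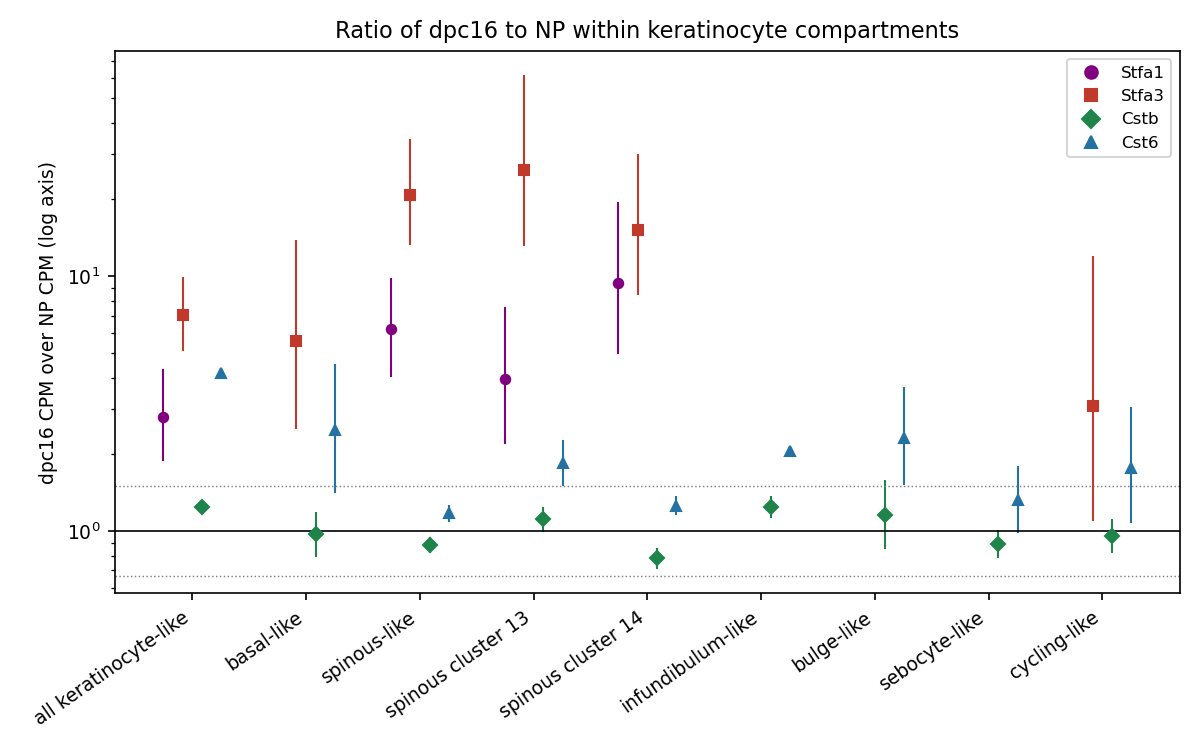
Ratio of the dpc16 level to the NP level (CPM over CPM, log axis) of Stfa1, Stfa3, Cstb and Cst6 where measured, in all keratinocyte-like cells, within named compartments and within the 2 spinous-like clusters; unnamed clusters are left out. Bars are exact 95% intervals, the solid line is equality and the dotted lines are 1.5-fold either way; Stfa3 reaches 20.7 in spinous-like cells, whereas every Cstb point shown lies between the dotted lines.

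The dpc16 spinous-like cells differed from the others in more than stefin A. Their median depth was 7979 UMIs, against 4064 in NP and 5578 in dpp42. Thinning every cell to 1000 UMIs left Stfa3 in 0.563% of NP, 14.2% of dpc16 and 0.588% of dpp42 spinous-like cells, and Stfa1 in 0.845%, 3.55% and 0 of 170 cells, which allows up to 1.76%. At 2000 UMIs per cell the shares of Stfa3 were 0.855, 26.4 and 1.79% and those of Stfa1 2.85, 11.7 and 0.595%. For Stfa3, dpc16 was thus far above the other libraries at equal depth too. For Stfa1 over all keratinocyte-like cells the share with a UMI was 2.26% in NP and 4.97% in dpc16 with all UMIs. Spinous-like cells were 355 of these 1017 NP cells and 197 of the 1771 dpc16 cells. At 1000 UMIs per cell the shares were 0.492% (5 cells, 0.160 to 1.14%) and 0.508% (9 cells, 0.233 to 0.962%). These are too few cells to tell whether the shares differ. The Stfa1 level in spinous-like cells was 6.01-fold that of NP at that depth, on too few UMIs to be called.

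Fibroblast and activation genes were also at higher summed levels in the dpc16 spinous-like cells. A list of 8 fibroblast genes, all of them detected, summed to 1336 CPM, against 104 CPM in NP and 156 CPM in dpp42. A list of 9 activation genes summed to 5061 CPM, against 3584 and 2925 CPM. All 9 had UMIs in NP, but Krt6b and Inhba had none in dpc16 and dpp42. The part of both lists in the stefin A difference was not tested. The 4 haemoglobin genes summed to 140 CPM, against 245 CPM in NP and 280 CPM in dpp42. Of 10 genes of neutrophils, which also make stefin A, none had a UMI in the dpc16 spinous-like cells. The list summed to 6.22 CPM in NP and 1.36 CPM in dpp42, or 0.415 and 0.682 CPM without S100a8 and S100a9. Fibroblast-like cells, which should lack stefin A, had Stfa3 in 0 of 103 NP, 13 of 1125 dpc16 (1.16%) and 0 of 112 dpp42 cells, at median depths of 2617, 4043 and 2420 UMIs. Stfa1 was in 0, 4 (0.356%) and 0 of them. The dpc16 spinous-like shares of 48.7 and 36.0% lay far above these, at a greater depth. At 1000 UMIs per cell Stfa3 was in 14.2% of dpc16 spinous-like and 0.178% of dpc16 fibroblast-like cells. Stfa1 was in 3.55% of the former and in 0 of 1125 of the latter. The part of RNA from other cells in the stefin A UMIs was not tested.

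**Figure D3:**
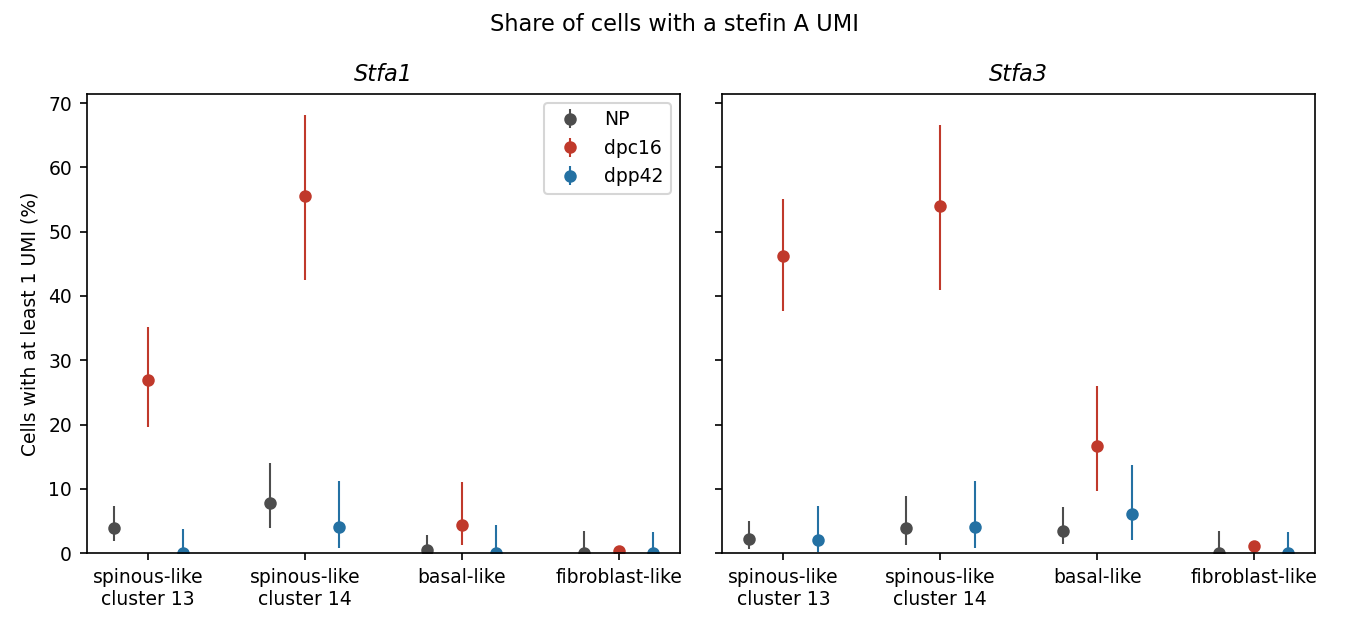
Share of cells with at least 1 UMI of Stfa1 or Stfa3 (%) in the 2 spinous-like clusters, basal-like cells and fibroblast-like cells, by library. Bars are exact Clopper-Pearson 95% intervals; in dpc16 Stfa3 was found in 46.3% of cluster 13 and 54.0% of cluster 14, against at most 4% of either cluster in the other libraries, and in 1.16% of fibroblast-like cells.

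Both stefin A genes were found in the same dpc16 cells. Of 197 spinous-like cells, 50 had UMIs of both, 21 of Stfa1 only, 46 of Stfa3 only and 80 of neither. Among cells with Stfa1, 70.4% had Stfa3, against 36.5% of cells without it. Deeper cells show more of any gene, and at 1000 UMIs per cell only 1 cell had both, with Stfa3 in 14.3% of the cells with Stfa1 and 14.2% of the others. At that depth, 7 cells with Stfa1 were too few to show an association.

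Cst6, the secreted cystatin M/E, was a gene of the infundibulum-like cells. It stood there at 20110.2 CPM in NP (42 cells), 41392 CPM in dpc16 (156 cells) and 33865 CPM in dpp42 (32 cells), from 2722, 31648 and 3159 UMIs. These cells were 3.26, 4.27 and 2.96% of the kept cells and held 59.4, 66.2 and 43.2% of all Cst6 UMIs. Their Cst6 level exceeded that of basal-like cells 509-fold in NP (329 to 835), 422-fold in dpc16 (308 to 597) and 349-fold in dpp42 (238 to 535). The basal-like levels, given below, are in the range of cell types that should lack the gene, so these folds rest on a low denominator. Cst6 and Cstb were the 2 members called higher in infundibulum-like than in basal-like cells in every library, beside 11.0, 16.6 and 10.5% of genes. With other ways of drawing the compartments the Cst6 ratio had a range of 187 to 681 for NP, 176 to 432 for dpc16 and 115 to 349 for dpp42.

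The infundibulum-like cells differed widely among themselves. The median cell had 16 Cst6 UMIs in NP, 85.5 in dpc16 and 16.5 in dpp42, which were 0.538, 1.83 and 0.441% of its UMIs. The highest cell had 439, 2381 and 667 UMIs. In 1 dpc16 cell, Cst6 made up 32.6% of all UMIs, and 2, 17 and 3 cells exceeded 10%. The sums therefore rest on few cells: 50% of the Cst6 UMIs were in 5 NP, 15 dpc16 and 3 dpp42 cells. A Cst6 UMI was found in 35 of 42, 152 of 156 and 26 of 32 cells.

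Between libraries, infundibulum-like Cst6 was higher in dpc16 than in NP by 2.06-fold (1.98 to 2.14) and higher in dpp42 than in NP by 1.68-fold (1.60 to 1.77). Of 3 measured members 2 were called higher in dpc16 (Cst6 and Stfa3), beside 4.63% of genes, and of 2 in dpp42 1 was (Cst6), beside 2.58%. The counting intervals are narrow because the counts are large, and they do not hold the spread between cells. The ratio of dpc16 to NP ranged from 1.55 to 5.60 over the alternatives, with 5.60 when each library was clustered alone, and that of dpp42 to NP reversed to 0.905 with a minimum of 500 genes per cell. The median depth of these cells was 2868, 4250 and 2438 UMIs.

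**Figure D4:**
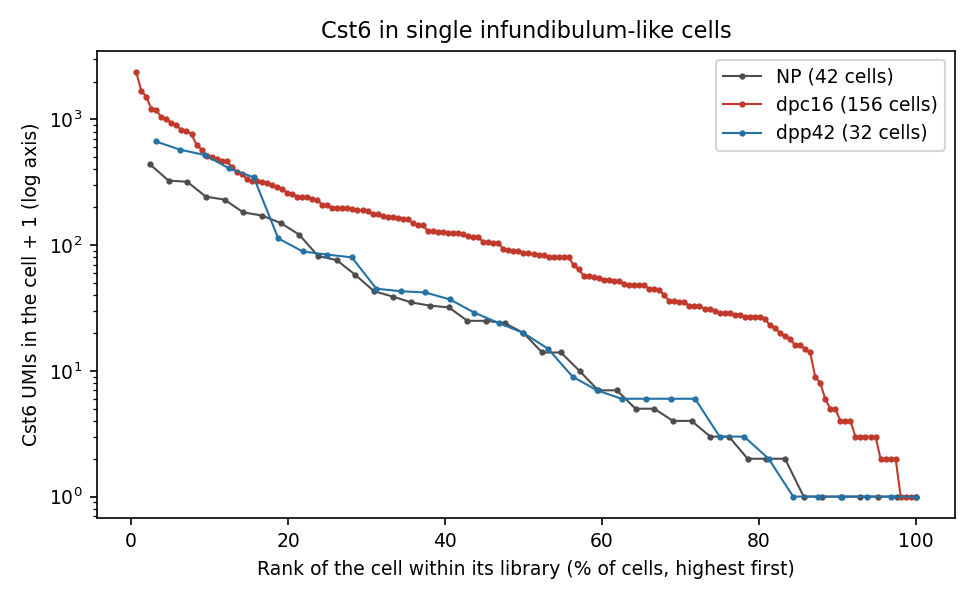
Cst6 UMIs in each infundibulum-like cell (number plus 1, log axis) against the rank of the cell within its library (% of cells, highest first). The 156 dpc16 cells run from 2381 UMIs down to 0, with a median of 85.5, above the medians of 16 in NP and 16.5 in dpp42.

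Over all keratinocyte-like cells Cst6 stood at 871 CPM in NP, 3645 CPM in dpc16 and 1616 CPM in dpp42. The ratio of dpc16 to NP was 4.18 (4.06 to 4.32) and that of dpp42 to NP 1.85 (1.79 to 1.93). Infundibulum-like cells were a larger share of the dpc16 keratinocyte-like cells, and with the same weight for each compartment the first ratio was 2.07.

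Cst6 was higher in the upper layers of the epidermis. Basal-like cells had 39.5, 98.0 and 97.1 CPM in NP, dpc16 and dpp42, and spinous-like cells 507, 595 and 423 CPM. The spinous-like level was 12.8-fold (8.27 to 21.1), 6.07-fold (4.40 to 8.61) and 4.35-fold (2.94 to 6.72) the basal-like level. These folds rest on the same low denominator, and their order between libraries is not read as a difference in expression. The 46 granular-like cells had 1652, 3369 and 2542 CPM, and are too few per library for a comparison. Spinous-like Cst6 differed little between libraries, at 1.17 for dpc16 over NP (1.09 to 1.27) and 0.834 for dpp42 over NP (0.756 to 0.919). With at most 5% mitochondrial UMIs both were called higher, at 1.62 and 1.65. Within cluster 13 alone it was higher in dpc16, at 255 against 138 CPM, beside 4.92% of genes, and in cluster 14 it stood at 942 against 751 CPM.

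Elsewhere in the follicle Cst6 ranged widely. Bulge-like cells had 162 CPM in NP, 377 CPM in dpc16 and 117 CPM in dpp42, with dpc16 2.32-fold NP (1.52 to 3.67). Cst6 was the 1 of 2 measured members called higher there, beside 7.01% of genes. Fibroblast-like cells also had more in dpc16, at 125 CPM without 5 cells of over 20 UMIs, against 48.9 CPM in NP. The bulge-like ratio is therefore not read as a difference in expression. Cluster 1, led by Nppc, Epgn and Lgr5, had 7.44 CPM in NP, 632 CPM in dpc16 and 70.1 CPM in dpp42, from 2, 226 and 19 UMIs. Cluster 2, led by haemoglobin genes and Krt6a, had 111 CPM in 25 NP cells, 1513 CPM in 254 dpc16 cells and 8495 CPM in 17 dpp42 cells, from 7, 1366 and 499 UMIs. Sebocyte-like cells had 62.6, 82.8 and 76.9 CPM. Cluster 3, where the markers of 3 lists tied and keratins of the follicle (Krt17, Krt71, Krt79) led, had 23520 CPM in dpc16 and 9878 CPM in dpp42. Counted as infundibulum-like, it took the ratio of dpp42 to NP there to 1.02.

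The low Cst6 levels were close to those of cell types that should lack the gene. Blood endothelial-like cells had 49.6, 86.9 and 48.4 CPM in NP, dpc16 and dpp42. Fibroblast-like cells had 48.9, 554 and 68.2 CPM, and 2134 of their 2750 dpc16 UMIs were in 5 cells, without which the level was 125 CPM. At these values the basal-like, sebocyte-like and cycling-like levels of Cst6 in dpc16, 98.0, 82.8 and 95.6 CPM, lie between those of dpc16 mural-like cells (60.3 CPM) and macrophage-like cells (134 CPM), and their ratios to NP are not read as a difference in expression. Langerhans and dendritic-like cells of dpc16 had 2034 CPM, or 279 CPM without 5 cells of over 20 UMIs, and lymphatic endothelial-like cells 1658 CPM, or 274 CPM without 2 such cells. A Cst6 UMI was in 38.6% of dpc16 fibroblast-like cells, at a median depth of 4043 UMIs, and in 57.1% of dpc16 keratinocyte-like cells, at 5048 UMIs. In dpc16 lymphatic endothelial-like cells the share was 66.0% (93 of 141), so their UMIs were not confined to the 2 cells. In dpc16 blood endothelial-like cells it was 35.2%. At 1000 UMIs per cell these 4 shares were 12.4, 26.4, 28.4 and 8.59%. The source of the UMIs outside keratinocyte-like cells was not tested.

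Cstb, which encodes stefin B, was present in most cells and nearly level between libraries. Its keratinocyte-like level was 661 CPM in NP, 822 CPM in dpc16 and 705.5 CPM in dpp42, and a UMI was found in 77.3, 84.6 and 79.0% of the cells. The ratio of dpc16 to NP was 1.24 (1.20 to 1.29) and that of dpp42 to NP 1.07 (1.02 to 1.12), so the intervals exclude equality but the ratios stay under 1.5-fold. Within the named compartments the ratio of dpc16 to NP ran from 0.880 in spinous-like to 1.24 in infundibulum-like cells and was not called in any. Cluster 1 was called, at 1.81 (1.33 to 2.51), beside 17.2% of genes higher there.

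Across the named compartments Cstb had the same peak as Cst6 on a smaller scale. Infundibulum-like cells had 3251 CPM in NP, 4034 CPM in dpc16 and 4577 CPM in dpp42, or 6.94-fold, 8.88-fold and 10.3-fold the basal-like levels of 468, 454 and 444 CPM. Spinous-like cells had 702, 618 and 618 CPM, bulge-like cells 385, 445 and 406 CPM, sebocyte-like cells 378, 337 and 325 CPM and cycling-like cells 642, 613 and 442 CPM. Cluster 10, which has 4 haemoglobin genes and 3 keratinocyte markers among its 10 leading genes and was therefore kept outside the keratinocyte-like class, had 1551, 2139 and 1432 CPM. Cluster 2, with 4 haemoglobin genes but 5 keratinocyte markers, was kept inside it. The unnamed cluster 3 held 0.281, 4.59 and 14.8% of the Cstb UMIs of NP, dpc16 and dpp42, with 0.238, 1.08 and 2.95% of all UMIs. Infundibulum-like cells held 11.2, 21.2 and 11.7% of them, with 2.29, 3.88 and 1.72% of all UMIs. The intervals of bulge-like and sebocyte-like cells overlapped in NP and dpp42 but not in dpc16. Outside the epithelium Cstb was present too, with 1394 CPM in dpc16 macrophage-like cells, 1007, 923 and 1018 CPM in Langerhans and dendritic-like cells, 353, 394 and 290 CPM in fibroblast-like cells and 248, 183 and 158 CPM in blood endothelial-like cells.

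Genes with a like pattern were sought by Pearson's r of log2(CPM + 10) over 26 sums of 1 compartment in 1 library, among 5609 genes. The sums share libraries and cells of 1 kind, and r is a description. For Cst6 the first 5 were Atp6v1c2 (0.94), Gdpd1 (0.94), Defb6 (0.93), Nebl (0.92) and Blnk (0.90), of which Atp6v1c2 and Defb6 are on the marker lists that named the clusters. For Cstb they were Cst6 (0.89), Insig2 (0.88), Atp6v1c2 (0.87), Sox7 (0.87) and Defb6 (0.87). For Stfa1 the first 4 were Npl (0.80), Krt2 (0.77), a keratin of the upper epidermis, Serpinb12 (0.75) and BC100530 (0.71), each at its highest in dpc16 spinous-like cells. For Stfa3 the first 4 were Eif3k (0.75), Tgm3 (0.74), a transglutaminase on the marker lists, Gltscr2 (0.72) and Avpi1 (0.72). Stfa1 and Stfa3 had an r of 0.69 with each other, Cstb and Cst6 0.89, and Stfa3 and Cst6 -0.14.

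Of 22 other cystatin family genes on the list, 10 had UMIs and 3 were measured in keratinocyte-like cells. Cst3, the secreted cystatin C, was the most abundant, with 980 CPM in NP, 982 CPM in dpc16 and 1033 CPM in dpp42, and was called in no comparison of libraries over all these cells. One of the 3, BC100530, was higher in dpc16 than in NP, beside the same 8.89% of all genes, and 1, Csta1, was higher in dpp42 than in NP, beside 4.42%. Values of these 2 stefin A genes are given although they fall under the level set for naming, and were chosen after they were seen. BC100530, which shares its 3′ end in part with Stfa1, stood at 12.4, 68.5 and 23.2 CPM in spinous-like cells of NP, dpc16 and dpp42. It was higher in dpc16 than in NP by 5.50-fold (3.71 to 8.43), though 44 of 158 dpc16 UMIs were in 1 cell. In dpp42, 29 of its 50 UMIs in keratinocyte-like cells were in 1 cell, so the dpp42 level rests on few cells. Csta1 was instead a gene of the granular-like cells, with 447, 937 and 562 CPM there and 27.0, 50.3 and 66.8 CPM in spinous-like cells.

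Of the 11 listed cysteine proteases, among them targets of these inhibitors, 9 were measured in keratinocyte-like cells of dpc16 and NP. In dpc16, 6 of the 9 were higher than in NP and 0 lower, beside 8.89% and 22.1% of all genes, with a median log2 ratio of 0.86 against -0.15 over all genes. Those called were Lgmn, which encodes legumain, Ctsh, Ctsl, Ctsf, Ctsz and Ctsk. Ctsb, the lysosomal cathepsin B and the most abundant, stood at 143 CPM in NP, 203 CPM in dpc16 and 151 CPM in dpp42 and was not called. In dpp42 over NP, 3 of 6 were higher, beside 4.42% of genes, and 1 was lower, beside 3.09%, with a median log2 ratio of 0.41, and in dpp42 over dpc16 0 of 9 were higher, beside 22.1% of genes, and 4 were lower, beside 8.53%. Ctsk, a protease of fibroblasts and bone, was at 0.985 CPM in NP and 17.4 CPM in dpc16, and the 8 fibroblast genes summed to 114.5 and 806 CPM in the same cells. The part of such RNA in the protease counts was not tested.

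**Figure D5:**
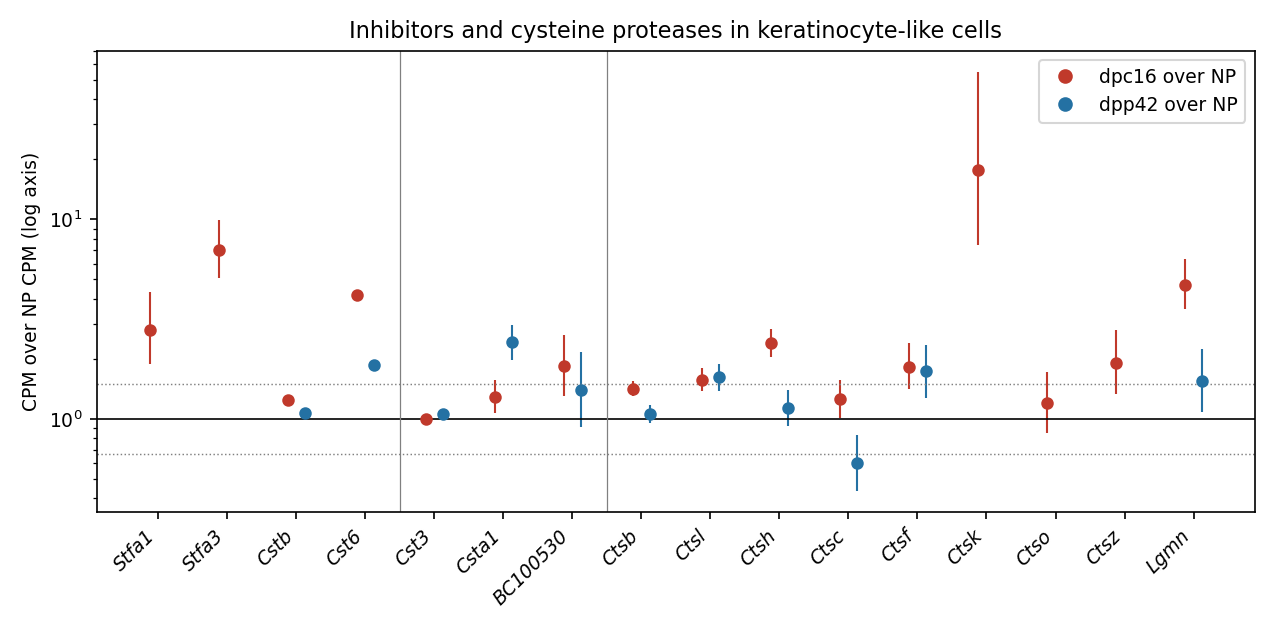
Level over NP (ratio of CPM, log axis) in keratinocyte-like cells for the members, 3 other cystatins and the measured cysteine proteases, with dpc16 and dpp42 as separate points and exact 95% intervals as bars. The solid line is equality and the dotted lines are 1.5-fold either way; Stfa3 at 7.01 and Cst6 at 4.18 are the highest dpc16 ratios among the members, and Cstb at 1.24 the lowest.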

How the data were processed

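Per the labels' protocols, cells were barcoded with 10x Chromium version 2 chemistry, and Cell Ranger 2.2.0 was run on the mouse build mm10 (GRCm38), per the submitters' processing notes. Which annotation and counting options were used is not given in the sources used here. What the authors deposited are raw UMI counts for each gene in each barcode, not normalized. These sum to 6031814 (NP), 21679047 (dpc16) and 5794940 (dpp42).

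Cells were kept with at least 200 genes and at most 10% mitochondrial UMIs, which left out 41, 470 and 115 barcodes. Scrublet marked 1, 2 and 1 cells and was not used, so doublets remain. Cells of all libraries were clustered jointly in scanpy 1.11.5 (2000 variable genes, 30 components, 15 neighbours, Leiden resolution 1) without 42 cystatin, protease and comparison genes. The best list of a cluster was the marker list with the highest mean log2 enrichment, with at least 3 markers detected. It gave the name only if the 10 leading genes held its markers, and no fewer than those of another list. A keratinocyte compartment was also not named where several other lists tied with it. Clusters 1 and 25, with basal as best list, and 2, with bulge, kept a number by this rule. Clusters 3 and 10 were set aside after the clusters were seen.

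UMIs were summed per compartment and library and given as CPM with exact Poisson intervals. Ratios have exact conditional binomial intervals, shares Clopper-Pearson intervals, and a sum at 0 a limit of 3 counts. PCR duplicates are removed by the UMIs, and the intervals cover counting error only. The ratio intervals were checked on simulated counts, and the Poisson and Clopper-Pearson intervals against 1 known value each. There was no test of the groups, since each has 1 library.

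Named genes are the members, other listed cystatins and proteases (values at 100 CPM or more), and the 5 genes closest to each member, of which the last for Stfa1 and Stfa3 is not reported here. The members and lists were chosen with earlier results of these data known. Alternatives changed the mitochondrial and gene limits, the clustering, the depth per cell, the denominator and the weight of compartments. Promoters came from RefSeq (GRCm38.p6), which matched 7 of 9 genes looked up. Other tools were Python 3.11.15, numpy 2.4.6, scipy 1.17.1, pandas 2.3.3, anndata 0.12.19, igraph 0.11.9, biopython 1.88 and matplotlib 3.10.9.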

Additional observations from a re-analysis of the deposited data

How the results depend on the processing

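No paired analysis was possible because each group has 1 library, and for the same reason no library could be left out. Of 594 values recomputed under an alternative, 545 were counted as unchanged, and 1 further alternative gave no value because its denominator held 0 UMIs. A ratio was unchanged if its call stayed, so ratios called neither could cross 1. Basal-like Stfa3 (dpp42 over NP) did so, from 1.65 to as low as 0.607. Counts could also vary while counted as unchanged: the proteases lower in dpp42 than in dpc16 were 4, with a range of 3 to 5. Stfa3 stayed higher in dpc16 than in NP in all keratinocyte-like cells (4.93 to 9.21) and in spinous-like cells (17.6 to 38.7) under every alternative run. In the exceptions below the cause was not tested. The treatment of cluster 3 and leaving out the richest cell were chosen after seeing the data.

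Ratios are given by setting. With at most 5% mitochondrial UMIs, spinous-like Cst6 was 1.62 (dpc16 over NP) and reversed to 1.65 (dpp42 over NP), basal-like Stfa3 was 0.543 (dpp42 over dpc16), fibroblast-like Cst6 in dpc16 was 656 CPM, and the other cystatins called higher were 2 in dpc16 and 2 in dpp42 over NP. With at least 500 genes, infundibulum-like Cst6 reversed to 0.905 (dpp42 over NP) and was 0.582 (dpp42 over dpc16). At resolution 0.5 these were 1.34 and 0.562, and spinous-like Stfa1 was 0.226 (dpp42 over NP, no longer called). With each library clustered alone, infundibulum-like Cstb was 1.95 and spinous-like Cst6 1.77 (dpc16 over NP), spinous-like Cstb 0.593 and Cst6 0.373 (dpp42 over NP), and Cst6 0.476 in infundibulum-like and 0.211 in spinous-like cells (dpp42 over dpc16). With layers read from marker UMIs without clusters, spinous-like Cst6 was 1.52 (dpc16 over NP), infundibulum-like Cst6 1.42 (dpp42 over NP), basal-like Stfa3 0.451 (dpp42 over dpc16), and 1 other cystatin was lower in dpp42 than in dpc16.

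Depth limits Stfa1 most. With cells thinned to 1000 UMIs, ratios that were no longer called were Stfa1 at 1.38 in keratinocyte-like and 6.01 in spinous-like cells and basal-like Stfa3 at 7.19 (dpc16 over NP), spinous-like Stfa1 at 0 and infundibulum-like Cst6 at 1.42 (dpp42 over NP), Stfa1 at 0.200 in keratinocyte-like and 0 in spinous-like cells and basal-like Stfa3 at 0.0844 (dpp42 over dpc16), and in dpc16 the spinous-like over basal-like ratios of Stfa3 at 1.51 and Stfa1 at 4.57. Newly called were spinous-like Cst6 at 0.648 (dpp42 over NP) and 0.559 (dpp42 over dpc16) and basal-like Cstb at 0.601 (dpp42 over dpc16). The other cystatins called higher in dpc16 over NP were then 0, and the proteases higher in dpp42 over NP 1. The ratio of shares of cells with Stfa1 (dpc16 over NP) was 1.03 at 1000 and 1.27 at 2000 UMIs per cell, and that of Stfa3 (dpp42 over NP) 0.275 at 1000. With all UMIs, 3, 58 and 1 keratinocyte-like cells of NP, dpc16 and dpp42 had both Stfa1 and Stfa3, against 0, 1 and 0 after thinning.

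Without mitochondrial, ribosomal and haemoglobin UMIs, spinous-like Cst6 was 0.646 (dpp42 over dpc16). With cluster 3 counted as infundibulum-like, Cst6 there was 1.02 (dpp42 over NP) and 0.499 (dpp42 over dpc16). With compartments weighted equally, Stfa1 was 0.0906 (dpp42 over NP) and Cst6 0.802 (dpp42 over dpc16). Without the richest cell, spinous-like Stfa1 was 0.158 (dpp42 over NP) and basal-like Stfa3 0.404 (dpp42 over dpc16), neither of them called.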
